A study of Homo sapiens with 30 samples.

Results

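The response of LNCaP cells to an siRNA against EZH2 was read from 6 of the 30 RNA sequencing libraries of the series, 3 treated with the EZH2 siRNA (siEZH2) and 3 with a control siRNA (siCtrl). LNCaP is an established, androgen-responsive line of luminal prostate adenocarcinoma cells, grown here in serum-containing medium. Per the labels, siRNA cells were taken after 4 days of transfection. A further 6 libraries, 3 with an shRNA against FOXA1 (shFOXA1) and 3 with its control (pLKO), were taken 5 days after infection and serve for comparison. No group is labelled with a second agent, and none of the sources used here gives the siRNA sequences. Of 26443 genes with values, the 11908 that reached an FPKM of at least 1 in at least 3 of the 6 siRNA libraries were analysed. FPKM is a fragment count per gene corrected for gene length and library size. The groups show which RNAs differ between EZH2 siRNA and control siRNA, in a series whose title concerns polycomb proteins and the stability of FOXA1. No rescue of EZH2 is labelled, so effects of lower EZH2 and other effects of the siRNA cannot be told apart.

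EZH2 is the catalytic subunit of polycomb repressive complex PRC2, which places methyl groups on lysine 27 of histone H3 and keeps developmental genes silent. EED and SUZ12 are the core partners that EZH2 needs for activity, and EZH1 is its paralog. In prostate cancer EZH2 is known both as a repressor of differentiation genes and as a coactivator, and its own gene is a target of the E2F factors that drive the cell cycle.

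The siEZH2 libraries had FPKM sums of 235356 to 242449, against 278048 to 290339 in the siCtrl libraries. Each result is therefore also given, where it matters, after median-ratio scaling. This scaling sets the median ratio equal between libraries over the genes above 0 in every library fitted, which are not the same genes as those tested. Depth relative to siCtrl replicate 1, estimated from steps in low values, was 1.04 to 1.196 in siEZH2 and 0.954 to 1.32 in siCtrl libraries. The luminal markers KLK3, KLK2, TMPRSS2, FOLH1, HOXB13, KRT8 and KRT18 were all above 14 FPKM in every siRNA library. Across genes, which are not independent replicates, log2 values had r of 0.986 to 0.990 within siEZH2, 0.990 to 0.992 within siCtrl and 0.916 to 0.935 between the groups. Whether the replicates came from separate cultures is not labelled, and p-values cover only the spread among these libraries, which may be technical. Differences are log2(FPKM + 1) of siEZH2 minus siCtrl, which understates changes of genes near or under 1 FPKM, and ± is SE for differences and SD for levels, with n = 3 libraries per group. Library values follow the order of replicate numbers. Adjusted p-values are limma values, and a gene is called, or said to rise or fall, at an adjusted p under 0.05. In bulk RNA, fewer cells of a kind and less RNA per cell cannot be told apart.

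Sequence just upstream of the RefSeq start (GRCh38.p14, 250 bases each) is shown for 3 genes that stand at the ends of the response. IGFBP3 and TUBA1A had the highest differences and are printed with each CpG in capitals, and KLK3, whose mean FPKM dropped most of all genes, is printed with the hexamer AGAACA in capitals. AGAACA, or its reverse complement TGTTCT, is the core of the sequence that steroid receptors bind.
IGFBP3 (chr7:45921273-45921522, minus strand): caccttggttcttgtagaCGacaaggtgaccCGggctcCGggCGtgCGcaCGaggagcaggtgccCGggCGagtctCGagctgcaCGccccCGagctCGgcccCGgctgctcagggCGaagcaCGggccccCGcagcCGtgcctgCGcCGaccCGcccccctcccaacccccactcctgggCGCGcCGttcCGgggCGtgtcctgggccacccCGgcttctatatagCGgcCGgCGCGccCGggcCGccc
TUBA1A (chr12:49189081-49189330, minus strand): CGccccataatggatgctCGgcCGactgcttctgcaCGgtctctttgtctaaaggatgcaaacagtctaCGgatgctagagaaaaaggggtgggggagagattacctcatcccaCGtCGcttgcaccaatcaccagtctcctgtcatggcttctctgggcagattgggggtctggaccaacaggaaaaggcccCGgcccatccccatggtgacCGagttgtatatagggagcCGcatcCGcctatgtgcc
KLK3 (chr19:50854665-50854914, plus strand): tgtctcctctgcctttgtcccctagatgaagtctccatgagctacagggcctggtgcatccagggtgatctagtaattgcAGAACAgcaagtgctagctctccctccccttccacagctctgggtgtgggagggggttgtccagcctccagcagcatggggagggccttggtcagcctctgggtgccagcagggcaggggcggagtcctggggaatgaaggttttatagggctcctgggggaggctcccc
The IGFBP3 window held 32 CpG, the TUBA1A window 11 and the KLK3 window 1, where the median over all 35116 RefSeq windows of this length was 11. The hexamer began 170 bases upstream of the KLK3 start, was the one match on either strand there, and in either orientation it occurred in 12.4% of all windows. The IGFBP3 and TUBA1A windows overlap longer gene models of GENCODE 29, and letters only describe these windows. RefSeq windows were matched for 72.1% of the genes that rose at least 2-fold, so no comparison of base composition over that set was made.

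EZH2 RNA was lower in all 3 siEZH2 libraries. EZH2 (chromosome 7, 148807383 to 148884321, minus strand, GRCh38) stood at 5.03, 4.83 and 5.08 FPKM in the siEZH2 libraries, against 13.5, 11.7 and 12.6 FPKM in the siCtrl libraries. The groups did not overlap, with means of 4.98 ± 0.128 FPKM after siEZH2 and 12.6 ± 0.908 FPKM after siCtrl and a difference of -1.18 ± 0.081, adjusted p = 1.1e-06. EED stood at 4.32, 4.60 and 3.86 FPKM after siEZH2 and 7.05, 7.14 and 8.36 FPKM after siCtrl (-0.69 ± 0.095, adjusted p = 0.00012). SUZ12, at 14.2, 10.9 and 10.9 FPKM after siEZH2 and 18.7, 18.8 and 17.6 FPKM after siCtrl, fell as well (-0.59 ± 0.10, adjusted p = 0.00054). The histone-binding subunit gene RBBP7 fell (-0.57), so that 4 of the 12 PRC2 genes tested fell, 1 of them the siRNA target itself. This share of 33.3% stood under the 43.0% lower over all genes. The 3 that rose (25%, against 20.3% over all genes) were the accessory subunit genes JARID2 (1.17) and MTF2 (0.36) and the histone-binding gene RBBP4 (0.23), the last 2 named after their values were seen. JARID2, which helps bring PRC2 to its sites, stood at 13.8, 13.9 and 14.1 FPKM after siEZH2 and 5.99, 5.65 and 5.30 FPKM after siCtrl, with no overlap. EZH1 stood at 6.51, 5.87 and 6.30 FPKM after siEZH2 and 5.53, 5.15 and 5.40 FPKM after siCtrl (0.18 ± 0.080, adjusted p = 0.069), which missed the threshold as deposited and passed it after scaling (0.31, adjusted p = 0.0047). The median of the PRC2 list was -0.09, and 0.03 after scaling.

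**Figure D1:**
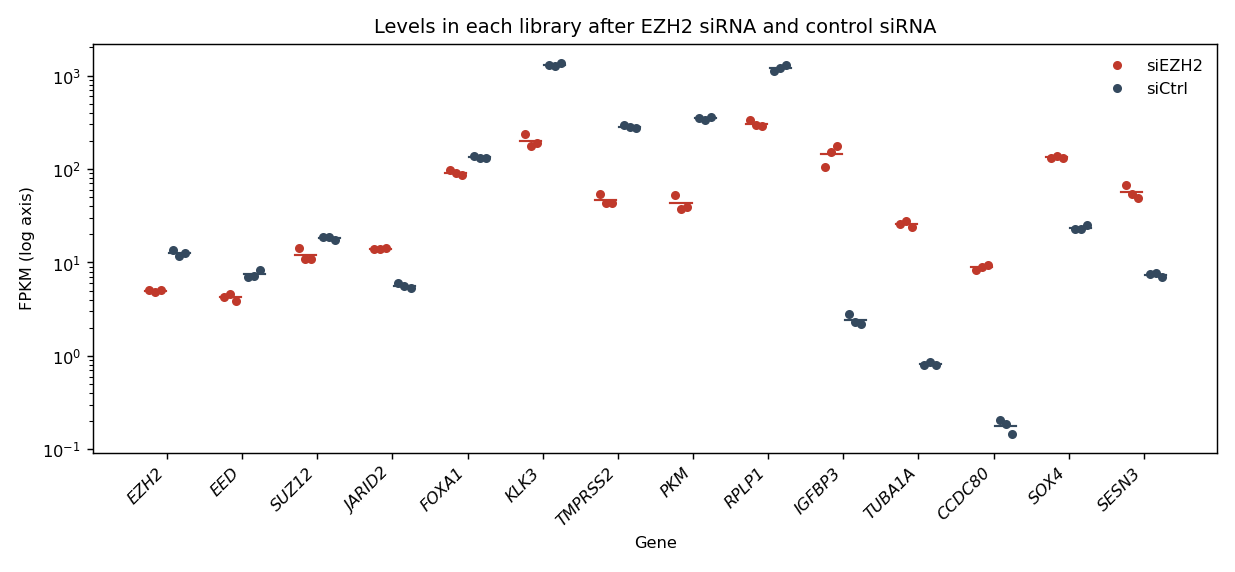
FPKM (log axis) of 14 genes in each library, with siEZH2 left of siCtrl, points for the 3 libraries of a group and a line for their mean. EZH2 averages 4.98 FPKM after siEZH2 and 12.6 FPKM after siCtrl. None of the 14 genes has overlapping groups, for several of them by choice, and neither do 68.0% of all genes tested.

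Over all genes, more RNAs fell than rose. In all, 7538 of 11908 genes were called (63.3%), 2416 higher (20.3%) and 5122 lower (43.0%), and the median difference was -0.16. After median-ratio scaling 7450 were called (62.6%), 3398 higher (28.5%) and 4052 lower (34.0%), since scaling moved the median of all genes up by 0.13. Higher genes made up 32.1% of calls as deposited and 45.6% after scaling. The same 2416 genes were higher and 4052 lower under both, and 0 changed direction. At 8095 genes (68.0%) the 3 siEZH2 and 3 siCtrl libraries did not overlap. The siEZH2 libraries were the higher ones at 2704 genes (22.7%) and the lower ones at 5391 (45.3%). Counts for gene lists are read against 20.3% higher and 43.0% lower as deposited and 28.5% and 34.0% after scaling. List medians are read against the all-gene median of -0.16 as deposited and -0.03 after scaling. List members that passed the filter only through their high group had to differ, so for such members the counts do not weigh direction. At least 2-fold, 308 genes rose (2.59%) and 837 fell (7.03%), and after scaling 428 rose (3.59%) and 573 fell (4.81%). These counts moved with the pseudocount and the filter: 544 rose and 1197 fell with a pseudocount of 0.1, and 200 rose and 756 fell with a filter at 5 FPKM.

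Genes that rose 2-fold were mostly of low level in control cells. Their median level was 9.66 FPKM after siEZH2 and 2.88 FPKM after siCtrl, and 83 of the 308 had a siCtrl mean under 1 FPKM. Genes that fell 2-fold had a median level of 7.07 FPKM after siEZH2 and 19.8 FPKM after siCtrl, and 43 of the 837 had a siEZH2 mean under 1 FPKM. A gene that passed the filter only through its high group had to differ, so these counts describe the set and do not weigh direction. Among the tested genes, 236 reached 1 FPKM in all siEZH2 and in 0 siCtrl libraries, and 164 the other way round. The siEZH2 libraries were not equally far from control. Replicate 1 was the nearest of the 3 to the siCtrl mean at 68.6% of the 837 genes that fell and at 47.4% of the 308 that rose, with median differences of -1.18 and 1.30, while EZH2 itself was as low there as in the other replicates. Without siEZH2 replicate 1, 940 genes fell and 328 rose at least 2-fold.

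**Figure D2:**
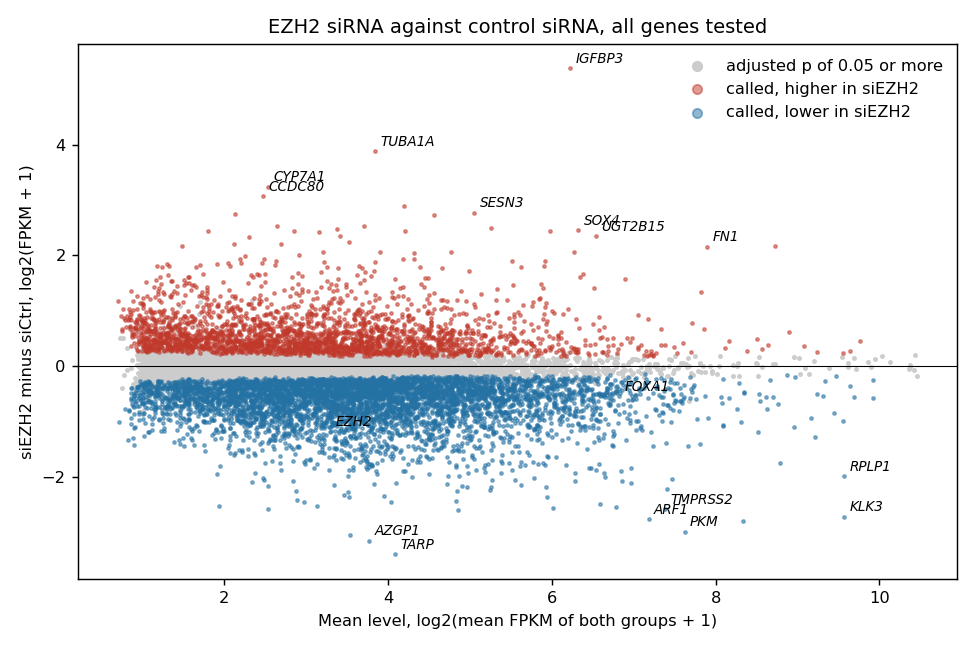
Difference between siEZH2 and siCtrl (log2 of FPKM + 1) against the mean level of both groups for the 11908 genes tested, with called genes coloured by direction. KLK3, RPLP1, PKM and ARF1 lie low at the abundant end, and IGFBP3 stands highest at 5.38.

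The RNAs that rose most encode a growth factor binding protein, tubulins, matrix and adhesion proteins and sestrins. IGFBP3 (chromosome 7, 45912245 to 45921874, minus strand), whose protein binds insulin-like growth factors, stood at 104, 153 and 177 FPKM in the siEZH2 libraries, against 2.83, 2.28 and 2.20 FPKM in the siCtrl libraries. The siEZH2 libraries differed among themselves, and the lowest was far above every control library (difference 5.38 ± 0.16, adjusted p = 2.4e-08). TUBA1A (chromosome 12, 49184796 to 49189324, minus strand), an alpha-tubulin gene that overlaps TUBA1C on the other strand, stood at 25.7, 27.9 and 23.8 FPKM in the siEZH2 libraries, against 0.791, 0.861 and 0.808 FPKM in the siCtrl libraries (3.88 ± 0.085, adjusted p = 8.3e-09). CYP7A1, the rate-limiting enzyme of bile acid synthesis, stood at 7.70, 11.6 and 9.22 FPKM after siEZH2 and 0.0262, 0.11 and 0.159 FPKM after siCtrl (3.24 ± 0.13, adjusted p = 6.3e-08). CCDC80, a secreted matrix-associated protein gene, was at 8.31, 8.94 and 9.43 FPKM after siEZH2 and 0.208, 0.184 and 0.146 FPKM after siCtrl (3.07 ± 0.091, adjusted p = 2.4e-08). None of these control levels overlapped the siEZH2 levels, which was a condition for a place among the 12 highest. HS3ST1, a heparan sulfate sulfotransferase gene, rose by 2.89, the adhesion gene TENM2 by 2.75, the beta-tubulin gene TUBB3 by 2.73, the intermediate filament gene VIM by 2.53 and the matrix glycoprotein gene THBS1 by 2.52. The antisense RNA gene SEMA3B-AS1 rose (2.47) and so did its neighbour SEMA3B (2.25, named after its values were seen). No source used here says whether reads were assigned by strand, so overlapping and antisense genes cannot be told apart.

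The sestrins, which restrain mTORC1 under stress and are FOXO and p53 targets, rose together. SESN3 stood at 66.8, 54.7 and 49.1 FPKM after siEZH2 and 7.51, 7.67 and 7.05 FPKM after siCtrl (2.77 ± 0.10, adjusted p = 4.3e-08), and SESN1 at 71.9, 65.3 and 54.8 FPKM after siEZH2 and 9.54, 10.9 and 11.04 FPKM after siCtrl (2.49 ± 0.10, adjusted p = 6.1e-08). Both sets of libraries were separate, again a condition for a place among the 12 highest. SESN2, the third family member, stood 0.63 higher. Among FOXO-linked genes and sestrins, 11 rose (47.8%) and 7 fell (30.4%) of 23 tested, with a median of 0.04 (11 and 7 after median-ratio scaling, median 0.19), and without siEZH2 replicate 1 the median was -0.05. The PI3K inhibitor gene PIK3IP1 (1.58) and the transcriptional cofactor gene CITED2 (1.46) rose, while the mitophagy gene BNIP3 fell (-2.37). In the IGF axis, 3 rose (30%) and 5 fell (50%) of 10 tested, with a median of -0.20 (4 and 4 after median-ratio scaling, median -0.08). There GRB10, an adaptor that dampens insulin receptor signalling, rose (1.62), and the receptor gene IGF1R fell (-0.79).

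Of the p53 targets, 16 rose (42.1%) and 10 fell (26.3%) of 38 tested, with a median of 0.05 (19 and 6 after median-ratio scaling, median 0.19). GADD45A (1.32), BTG2 (0.89) and ZMAT3 (1.34) rose, whereas CDKN1A, the p21 gene, stood at 87.2, 86.8 and 94.2 FPKM after siEZH2 and 197, 209 and 209 FPKM after siCtrl and fell (-1.19 ± 0.065, adjusted p = 3e-07). The stress cytokine gene GDF15 fell too (-1.29). In the BCL2 family, 6 rose (40%) and 7 fell (46.7%) of 15 tested, with a median of 0.06 (6 and 6 after median-ratio scaling, median 0.20), and without siEZH2 replicate 1 the median was -0.05. The death-promoting genes BMF (1.49) and BIK (0.84) and the survival gene MCL1 (0.94) rose, and PMAIP1, which encodes NOXA, fell (-0.83).

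**Figure D3:**
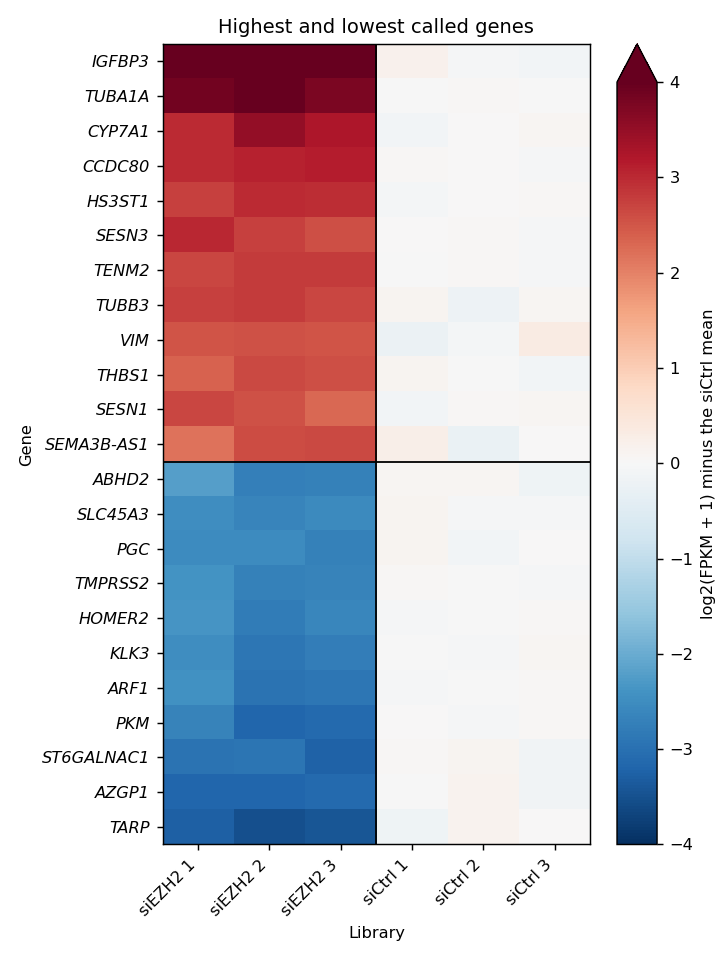
Each library's log2(FPKM + 1) minus the siCtrl mean, with the 3 siEZH2 columns left of the 3 siCtrl columns, for the 12 highest and 11 of the 12 lowest called genes without overlap between groups. The siCtrl columns stay near 0, and siEZH2 replicate 1 is the palest of the siEZH2 columns for ABHD2, ARF1 and PKM.

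Epithelial-mesenchymal and matrix genes that passed the filter rose more often than they fell: 19 rose (61.3%) and 5 fell (16.1%) of 31 tested. Their median was 0.57 (21 and 5 after median-ratio scaling, median 0.71). Over all genes 20.3% were higher and 43.0% lower. Besides CCDC80, VIM and THBS1, the fibronectin gene FN1 rose to 367, 395 and 403 FPKM in siEZH2 libraries, against 92.6, 89.6 and 76.9 FPKM in siCtrl libraries (2.16 ± 0.082, adjusted p = 4.3e-08). ID3, an inhibitor of helix-loop-helix factors, rose (1.89). The 5 members that fell were the laminin gene LAMC1 (-1.42), CALD1 (-0.88), TPM1 (-0.51), CYR61 (-0.49) and ITGA6 (-0.44), named after their values were seen. A further 19 of the 50 listed genes were under the filter. CCDC80 was under 1 FPKM in every siCtrl library and passed the filter only through siEZH2. Members tested that way had to be higher, and their part in the list's shares was not tested. Of 22 markers of stromal, immune, basal and endothelial cells, 4 passed the filter, and the fibrillar collagen genes COL1A1 (1.38) and COL3A1 (0.86) rose. COL3A1 too passed only through siEZH2. The summed level of all 22 was 16.98 to 20.3 FPKM after siEZH2 and 9.31 to 10.8 FPKM after siCtrl, and without COL1A1 7.39 to 8.49 and 6.44 to 7.42 FPKM. The immune marker CD68 and the stromal marker ACTA2 passed the filter too and were not called. They reached 2.54 and 2.30 FPKM after siEZH2, and 3.42 and 2.18 FPKM after siCtrl. The endothelial marker VWF reached 0.856 FPKM after siEZH2 and 0.978 FPKM after siCtrl, and the basal marker KRT14 0.168 and 0.368 FPKM. COL1A2, TP63 and CDH5 were listed at 0 in all 6 libraries, and DCN, PTPRC, KRT5 and PECAM1 stayed at or under 0.0502 FPKM. LUM, a stromal matrix proteoglycan gene under the filter and not tested, was higher in every siEZH2 library than in any siCtrl library, at 1.23, 0.774 and 0.924 FPKM after siEZH2 and 0.0712, 0 and 0.027 FPKM after siCtrl. The part of such markers in the matrix list's difference was not tested.

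Tubulins and microtubule proteins did not move as one. In that list 4 rose (18.2%) and 14 fell (63.6%) of 22 tested, with a median of -0.39 (5 and 13 after median-ratio scaling, median -0.25). TUBA1A and TUBB3 rose, while TUBA1B, a close relative of TUBA1A, fell to 92.7, 83.4 and 77.2 FPKM in siEZH2 libraries, against 184, 186 and 196 FPKM in siCtrl libraries (-1.15 ± 0.077, adjusted p = 9.9e-07). The gamma-tubulin gene TUBG1 (-1.33) and TUBA3D (-1.24) fell. Reads of near-identical tubulin genes may be shared. Only 7 of 38 neuroendocrine and neuronal markers passed the filter, of which 1 rose, the synaptotagmin gene SYT4 (0.42), and 4 fell, led by RAB3B (-1.48).

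Androgen-induced genes fell as a group: 1 rose (2.17%) and 40 fell (87.0%) of 46 tested, with a median of -1.25 (2 and 40 after median-ratio scaling, median -1.10). Of the 46 tested, 30 fell at least 2-fold (65.2%). Over all genes 43.0% fell and 7.03% fell at least 2-fold. KLK3 (chromosome 19, 50854915 to 50860764, plus strand), which encodes prostate-specific antigen, stood at 236, 175 and 191 FPKM in the siEZH2 libraries, against 1302, 1259.6 and 1379 FPKM in the siCtrl libraries (-2.72 ± 0.10, adjusted p = 4.3e-08, and -2.57 after scaling). TMPRSS2, a membrane protease gene, stood at 53.5, 43.04 and 43.6 FPKM after siEZH2 and 295.4, 281 and 276 FPKM after siCtrl (-2.59 ± 0.087, adjusted p = 3.6e-08). AZGP1, a secreted zinc-binding glycoprotein gene, stood at 1.74, 1.69 and 1.83 FPKM after siEZH2 and 23.2, 26.1 and 21.4 FPKM after siCtrl (-3.15 ± 0.090, adjusted p = 2.2e-08). In each case the lowest control library was far above the highest siEZH2 library. All of these genes were among the 12 lowest, for which lack of overlap was a condition. SLC45A3, which encodes prostein, fell (-2.56), as did the kallikrein gene KLK2 (-2.14). The members that were not called included ACPP (-0.12), TRPM8 (-0.09), BMPR1B (-0.05) and MAK (-0.05), and the 1 that rose was the potassium channel gene KCNMA1 (0.78), all named after their values were seen. The 40 that fell were also 40 in every fit that left out 1 library.

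FOXA1, a pioneer factor that opens chromatin in luminal cells, stood at 97.2, 89.7 and 86.7 FPKM in the siEZH2 libraries, against 137, 130.4 and 132 FPKM in the siCtrl libraries (-0.54 ± 0.066, adjusted p = 5.8e-05, and -0.39 after scaling). Its groups did not overlap. Among luminal transcription factors and cofactors, 6 rose (25%) and 12 fell (50%) of 24 tested, with a median of -0.21 (8 and 10 after median-ratio scaling, median -0.07), near the 20.3% and 43.0% over all genes. EHF (-1.08), NFIX (-0.89), CREB3L4 (-0.83) and HOXB13 (-0.67) fell, whereas the corepressor gene TLE1 rose to 27.5, 32.1 and 31.1 FPKM in siEZH2 libraries, against 4.59, 5.69 and 4.09 FPKM in siCtrl libraries (2.44 ± 0.11, adjusted p = 9.2e-08). Luminal keratins and secreted products were likewise near all genes in their counts: 6 rose (25%) and 12 fell (50%) of 24 tested, with a median of -0.19 (7 and 11 after median-ratio scaling, median -0.05). TARP, a prostate transcript from within the T-cell receptor gamma locus, was the lowest of all genes at 2.21, 1.72 and 1.90 FPKM after siEZH2 and 26.7, 33.4 and 30.3 FPKM after siCtrl (-3.40 ± 0.10, adjusted p = 2.4e-08). KRT19 fell to 0.187, 0.0428 and 0.148 FPKM in siEZH2 libraries, against 5.94, 4.46 and 6.10 FPKM in siCtrl libraries (-2.52 ± 0.12, adjusted p = 1.6e-07). The luminal keratin genes KRT8 (-0.44) and KRT18 (-0.82), which overlap each other's annotation, fell by smaller amounts. UGT2B15, which encodes an enzyme that conjugates androgens, rose (2.35), and so did TMEFF2 (1.63). FOLH1, the gene of prostate-specific membrane antigen, fell as deposited (-0.26) and was not called after scaling (-0.11, adjusted p = 0.16).

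Further RNAs with secretory, transport and enzyme roles stood among the 12 lowest. ST6GALNAC1, a sialyltransferase gene, stood at 1.67, 1.69 and 1.17 FPKM after siEZH2 and 20.1, 20.98 and 17.8 FPKM after siCtrl (-3.04 ± 0.11, adjusted p = 4e-08). ARF1, a GTPase gene of Golgi transport, stood at 45.9, 31.4 and 32.9 FPKM after siEZH2 and 244, 249 and 261 FPKM after siCtrl (-2.76 ± 0.12, adjusted p = 9.2e-08). PGC, which encodes pepsinogen C, stood at 0.72, 0.73 and 0.519 FPKM after siEZH2 and 9.56, 8.23 and 8.93 FPKM after siCtrl (-2.58 ± 0.098, adjusted p = 4.3e-08). All 3 were separate from control in every library, which was a condition for a place among the 12 lowest. The scaffold gene HOMER2 (-2.59) and the lipid hydrolase gene ABHD2 (-2.54) also fell. Among abundant RNAs named after their values were seen, the 14-3-3 gene YWHAE (-2.49) and the succinate dehydrogenase gene SDHB (-2.19) also fell.

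Every gene of the mitosis and spindle checkpoint list fell as deposited. Of its 55 members, all tested, 55 fell, with a median of -1.19, and 54 after scaling (median -1.07), where BUB3 (-0.20 as deposited) was no longer called. BIRC5, which encodes survivin, stood at 4.33, 3.78 and 4.10 FPKM after siEZH2 and 23.7, 28.7 and 27.98 FPKM after siCtrl (-2.45 ± 0.091, adjusted p = 4.3e-08). The centromere genes CENPN (-2.44) and CENPF (-2.35), the spindle gene HMMR (-2.11) and the cell cycle transcription factor gene MYBL2 (-2.01) followed. In the DNA replication list, 0 rose and 51 fell (96.2%) of 53 tested, with a median of -1.03 (2 and 49 after median-ratio scaling, median -0.89), and CCNE1 (0.14) and RPA2 (0.15) were the 2 not called as deposited and the 2 that rose after scaling. RRM2, the ribonucleotide reductase subunit gene, stood at 13.7, 9.52 and 9.40 FPKM after siEZH2 and 44.7, 49.5 and 41.5 FPKM after siCtrl (-1.98 ± 0.13, adjusted p = 9e-07). In both genes the siEZH2 libraries lay well under control, and replicate 1 was the highest of the 3. GINS1 (-1.82), MCM6 (-1.79), ASF1B (-1.77) and FEN1 (-1.76), genes of the replication fork and its chromatin, fell as well. Among CDK inhibitors, pocket proteins and D cyclins, 3 rose (17.6%) and 12 fell (70.6%) of 17 tested, with a median of -0.43 (4 and 11 after median-ratio scaling, median -0.28), and CDKN2A rose (0.55). Replication-dependent histone genes went the other way: 12 rose (60%) and 2 fell (10%) of 20 tested, with a median of 0.52 (13 and 1 after median-ratio scaling, median 0.65). HIST1H2BD (1.48) and HIST1H2BG (1.36) rose and the linker histone gene HIST1H1C fell (-1.64), although reads of near-identical histone genes may be shared.

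**Figure D4:**
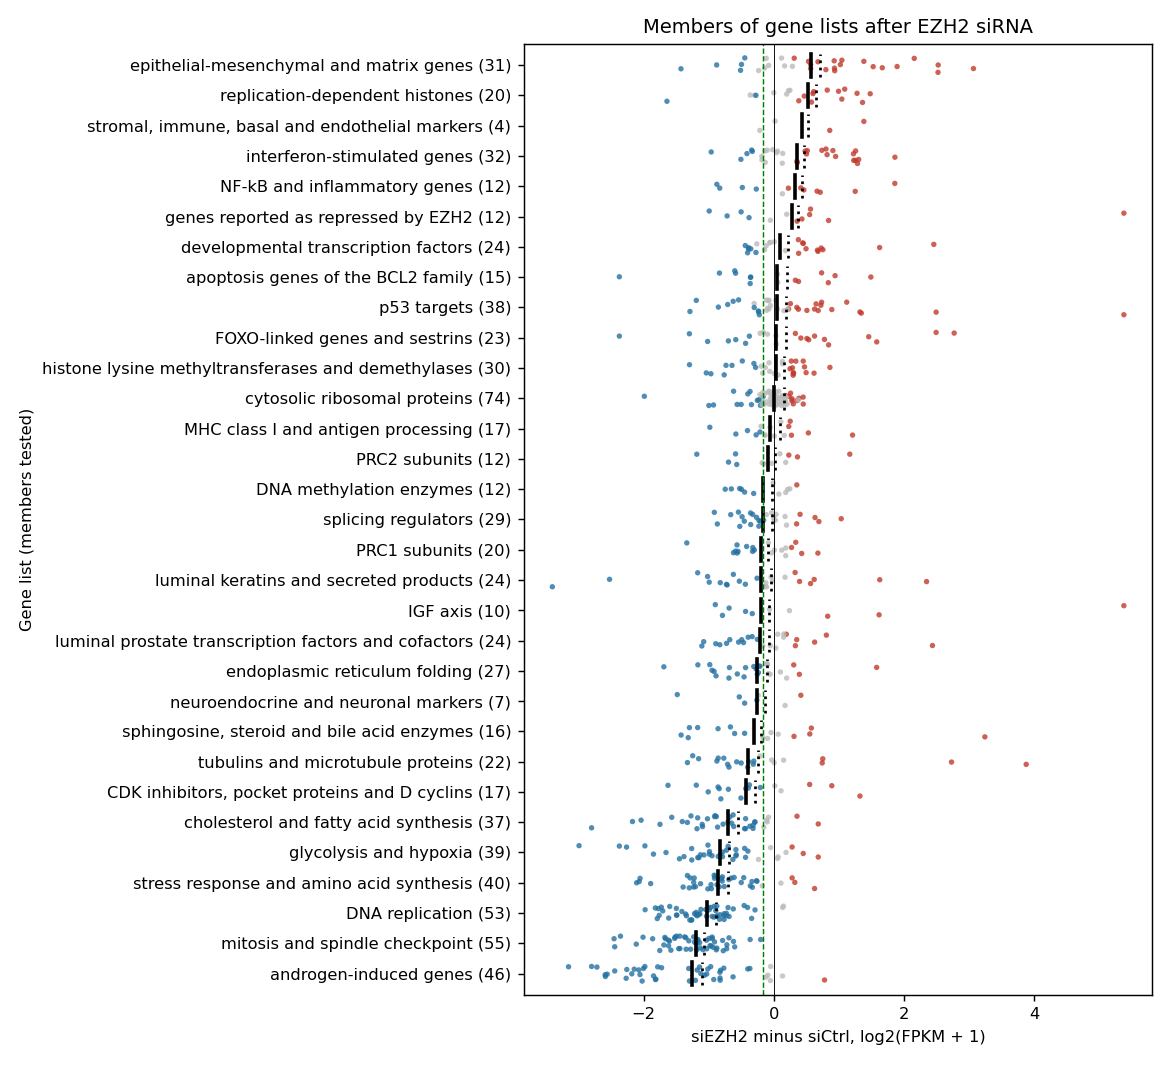
Differences between siEZH2 and siCtrl (log2 of FPKM + 1) for the tested members of 31 gene lists, ordered by median, with red and blue points for called genes that rose and fell and grey for the rest. Solid bars mark medians as deposited and dotted bars medians after scaling. The green dashed line marks the median of all genes as deposited, -0.16, which is -0.03 after scaling. Androgen-induced, mitosis and replication genes have the lowest medians.

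Most genes of sugar, lipid and amino acid metabolism fell. In the glycolysis and hypoxia list, 3 rose (7.69%) and 31 fell (79.5%) of 39 tested, with a median of -0.82 (4 and 31 after median-ratio scaling, median -0.68). PKM, the pyruvate kinase gene, stood at 53.3, 37.7 and 39.3 FPKM in the siEZH2 libraries, against 351, 334 and 359 FPKM in the siCtrl libraries (-2.99 ± 0.11, adjusted p = 4.4e-08). GPI, the second enzyme of glycolysis, stood at 43.1, 33.7 and 37.3 FPKM after siEZH2 and 139, 133 and 144 FPKM after siCtrl (-1.85 ± 0.089, adjusted p = 1.5e-07). Both were separate from control in every library, which for PKM was a condition for a place among the 12 lowest. NDRG1 (-1.98) and NDUFA4L2 (-2.26), known as hypoxia-induced genes, also fell, and the 3 members that rose were INSIG2 (0.68), KDM3A (0.45) and VEGFA (0.28), named after their values were seen. For cholesterol and fatty acid synthesis, 2 rose (5.41%) and 31 fell (83.8%) of 37 tested, with a median of -0.70 (2 and 27 after median-ratio scaling, median -0.55). FASN, the fatty acid synthase gene, stood at 209.7, 175 and 219 FPKM after siEZH2 and 786, 597 and 654 FPKM after siCtrl (-1.75 ± 0.11, adjusted p = 7.5e-07). No siEZH2 library reached a control library. MSMO1 (-2.17), HMGCS1 (-1.57) and the desaturase gene FADS2 (-2.04) fell too.

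Stress response and amino acid synthesis genes were mostly lower: 3 rose (7.5%) and 35 fell (87.5%) of 40 tested, with a median of -0.85 (3 and 31 after median-ratio scaling, median -0.71). PHGDH, the first enzyme of serine synthesis, stood at 50.3, 42.6 and 46.1 FPKM after siEZH2 and 207, 188 and 214 FPKM after siCtrl (-2.11 ± 0.081, adjusted p = 4.3e-08). MTHFD2 of mitochondrial folate metabolism (-2.05), PSAT1 (-1.39), TRIB3 (-1.89) and CHAC1 (-2.07), known targets of the ATF4 stress response, fell too. The list's 3 risers were SESN2, VLDLR (0.32) and VEGFA. Among endoplasmic reticulum folding genes, 3 rose (11.1%) and 17 fell (63.0%) of 27 tested, with a median of -0.25 (5 and 10 after median-ratio scaling, median -0.10). DNAJC3 (-1.69), HERPUD1 (-1.17) and XBP1 (-0.98) fell, while the disulfide isomerase gene PDIA4 rose to 161, 182 and 187 FPKM in siEZH2 libraries, against 59.3, 57.2 and 58.2 FPKM in siCtrl libraries (1.58 ± 0.071, adjusted p = 1.1e-07). Of the sphingosine, steroid and bile acid enzymes, 4 rose (25%) and 8 fell (50%) of 16 tested, with a median of -0.31 (4 and 8 after median-ratio scaling, median -0.20). The 5-alpha-reductase gene SRD5A1 (-1.17), SRD5A3 (-1.31) and UGT2B28 (-1.42) fell.

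Ribosomal protein genes stayed near 0 as a list, and the direction of the calls depended on scaling: 10 rose (13.5%) and 14 fell (18.9%) of 74 tested, with a median of 0.00 (29 and 8 after median-ratio scaling, median 0.15). RPLP1, a stalk protein gene of the large subunit, stood apart at 334, 293 and 286 FPKM in the siEZH2 libraries, against 1129, 1195 and 1304 FPKM in the siCtrl libraries (-1.99 ± 0.082, adjusted p = 6.3e-08). It was the only one of the 74 called at least 2-fold lower in log2(FPKM + 1). RPS26, at 2.62, 2.68 and 2.02 FPKM after siEZH2 and 4.75, 6.72 and 5.20 FPKM after siCtrl, missed that limit (-0.925 ± 0.13, adjusted p = 0.00013). The mean FPKM of RPS26 was 0.44 of control. RPL23 was at 563, 488 and 449 FPKM after siEZH2 and 905, 1012 and 1075 FPKM after siCtrl (-0.996 ± 0.096, adjusted p = 1.1e-05). Many ribosomal genes have processed pseudogenes that can take their reads. Splicing regulators stood near all genes as deposited and after scaling: 5 rose (17.2%) and 15 fell (51.7%) of 29 tested, with a median of -0.17 (9 and 10 after median-ratio scaling, median -0.03). MBNL2 rose (1.04) and SF3B1 fell (-0.87).

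Interferon-stimulated genes were higher more often than lower: 17 rose (53.1%) and 5 fell (15.6%) of 32 tested, with a median of 0.36 (18 and 3 after median-ratio scaling, median 0.47), against 20.3% higher and 43.0% lower over all genes. OASL stood at 5.83, 6.19 and 6.67 FPKM after siEZH2 and 0.975, 1.25 and 0.768 FPKM after siCtrl (1.86 ± 0.11, adjusted p = 4.4e-07). IFIT1 stood at 1.99, 2.52 and 2.21 FPKM after siEZH2 and 0.207, 0.384 and 0.339 FPKM after siCtrl (1.30 ± 0.11, adjusted p = 4.3e-06). The groups did not overlap at either gene, and levels were low. IFIT1 and IFIT2 were under 1 FPKM in every siCtrl library, so they passed the filter only through siEZH2 and had to be higher. A further 13 of the 45 listed genes were under the filter. IFI6 (1.26) and IFI44 (1.26) rose, and HERC6 fell (-0.96, named after its value was seen). Among NF-kB and inflammatory genes, 7 rose (58.3%) and 4 fell (33.3%) of 12 tested, with a median of 0.32 (8 and 3 after median-ratio scaling, median 0.43), with NFKBIZ (1.86) and NFKB1 (1.25) higher and CEBPB (-0.87) and CEBPD (-0.83) lower. For MHC class I and antigen processing, 5 rose (29.4%) and 5 fell (29.4%) of 17 tested, with a median of -0.06 (6 and 3 after median-ratio scaling, median 0.09). The peptide-trimming gene ERAP1 (1.21) and the transporter gene TAP1 (0.53) rose and HLA-C (-0.98), whose reads may be shared with other HLA genes, fell.

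Genes that polycomb is known to hold silent were mostly under the filter. Of 28 genes reported elsewhere as repressed by EZH2, 16 were under the filter, and of the others 6 rose (50%) and 4 fell (33.3%) of 12 tested, with a median of 0.28 (7 and 4 after median-ratio scaling, median 0.37). IGFBP3 led them, followed by the thioredoxin inhibitor gene TXNIP (0.84), WNT5A (0.56) and CDKN2A, and CDH1, the E-cadherin gene often named as an EZH2 target, fell to 90.01, 87.02 and 86.3 FPKM in siEZH2 libraries, against 177, 184 and 166 FPKM in siCtrl libraries (-0.99 ± 0.064, adjusted p = 8.2e-07). Of 70 developmental transcription factor genes, 46 were under the filter, and of the others 11 rose (45.8%) and 6 fell (25%) of 24 tested, with a median of 0.10 (12 and 4 after median-ratio scaling, median 0.22). SOX4, a factor gene linked to epithelial plasticity, rose to 132, 139 and 133 FPKM in siEZH2 libraries, against 22.9, 22.8 and 25.3 FPKM in siCtrl libraries (2.46 ± 0.068, adjusted p = 2.2e-08). SOX9 rose to 10.8, 10.9 and 10.3 FPKM in siEZH2 libraries, against 2.99, 2.87 and 2.51 FPKM in siCtrl libraries (1.63 ± 0.084, adjusted p = 2.3e-07). No siEZH2 library of either gene fell within the control range. ZIC2 (0.76), GATA6 (0.73) and IRX3 (0.68) rose by less than 2-fold. Among PRC1 subunits, 4 rose (20%) and 10 fell (50%) of 20 tested, with a median of -0.19 (6 and 7 after median-ratio scaling, median -0.09), near the 20.3% and 43.0% over all genes, with RYBP lower (-1.34) and PHC2 higher (0.68). For histone lysine methyltransferases and demethylases, 12 rose (40%) and 9 fell (30%) of 30 tested, with a median of 0.04 (15 and 7 after median-ratio scaling, median 0.16). KDM6B, which removes methyl groups from lysine 27, rose (0.86), and SETD7 (-1.29), SUV39H2 (-1.04) and KDM5C (-0.96) fell. Among DNA methylation enzymes, 1 rose (8.33%) and 6 fell (50%) of 12 tested, with a median of -0.16 (4 and 5 after median-ratio scaling, median -0.02), with DNMT1 (-0.74) and UHRF1 (-0.52) lower and TET2 (0.35, named after its value was seen) higher.

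To set the response beside loss of FOXA1, the siEZH2 effect was compared with the effect of shFOXA1 against pLKO, and the difference of the 2 effects was tested in 1 fit of the 12 libraries. Both treatments lowered EZH2 RNA and most cell cycle genes. The effects differed in size or direction at 55 of 55 mitosis, 43 of 53 replication, 40 of 46 androgen-induced and 68 of 74 ribosomal protein genes, against 63.2% of all genes. The siEZH2 and shFOXA1 experiments have separate controls, yet delivery, day and target differ together and cannot be told apart. The controls were alike at EZH2 (12.6 FPKM on average in both) but not at every gene. Mean levels in siCtrl and pLKO libraries were 5.55 and 219 FPKM for RPS26, 205 and 93.4 FPKM for CDKN1A, and 50.8 and 18.6 FPKM for DDC. The part of such unlike baselines in the differences of effects was not tested. In the fit of 12 libraries 8692 genes (73.0%) were called after shFOXA1, 2953 higher (24.8%) and 5739 lower (48.2%). The 2 effects differed at 7521 genes (63.2%), with a higher siEZH2 effect at 3925 (33.0%) and a lower one at 3596 (30.2%). Genes at least 2-fold higher numbered 440 (3.69%) and lower 1097 (9.21%) after shFOXA1. All counts of the shFOXA1 effect cover only genes that passed the filter in the siRNA libraries. Genes expressed only in shFOXA1 or pLKO libraries are left out. Of the 2-fold higher genes 78 were shared, 25.3% of the 308 after siEZH2 and 17.7% of the 440 after shFOXA1. The shared lower genes made up 35.2% of the 837 after siEZH2 and 26.9% of the 1097 after shFOXA1. Opposite directions were found at 15 genes higher after siEZH2 and lower after shFOXA1, and at 17 the other way.

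EZH2 also fell after shFOXA1 (-0.98), where it stood at 5.39, 5.99 and 6.22 FPKM in shFOXA1 libraries, against 12.7, 12.3 and 12.8 FPKM in pLKO libraries, and the difference of the effects did not pass the threshold (-0.20 ± 0.091, adjusted p = 0.073). FOXA1 itself fell further after shFOXA1 (-0.96, difference of effects 0.42 ± 0.069, adjusted p = 0.00014). Mitosis genes fell in both, by a median of -1.19 after siEZH2 and -2.98 after shFOXA1, and 54 of 55 had a higher, that is weaker, siEZH2 effect. The exception was CENPN, which fell after siEZH2 and rose after shFOXA1 (0.34). Replication genes had medians of -1.03 and -1.63, with 43 of 53 effects higher and 0 lower after siEZH2. The androgen-induced list had medians of -1.25 after siEZH2 and -0.52 after shFOXA1, and the siEZH2 effect was lower at 30 of 46 members and higher at 10. KLK3 fell to 751, 783 and 747 FPKM in shFOXA1 libraries, against 1092, 1088 and 1086 FPKM in pLKO libraries (-0.52), a smaller change than after siEZH2 (difference -2.20 ± 0.12, adjusted p = 5.5e-09). TMPRSS2 was higher after shFOXA1 (0.18, difference -2.76 ± 0.10, adjusted p = 2e-10), and SLC45A3 fell further after shFOXA1 (-4.41, difference 1.85 ± 0.11, adjusted p = 1.7e-08). All 74 ribosomal protein genes fell after shFOXA1 (median -0.89), and the siEZH2 effect was higher at 67 of them and lower at 1, RPLP1.

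IGFBP3 and TLE1 rose in both. IGFBP3 reached 52.7, 52.04 and 54.6 FPKM in shFOXA1 libraries, against 1.95, 1.89 and 1.63 FPKM in pLKO libraries (4.26), and its siEZH2 effect was the larger (difference 1.12 ± 0.20, adjusted p = 0.00031). For TLE1 the difference of effects did not pass the threshold (-0.18 ± 0.13, adjusted p = 0.25). TUBA1A, at 1.31, 0.918 and 0.941 FPKM in shFOXA1 and 1.38, 1.06 and 1.32 FPKM in pLKO libraries, was not called there (-0.14, difference 4.01 ± 0.13, adjusted p = 7.2e-11).

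The widest gap lay at the androgen-conjugating enzyme gene UGT2B15. UGT2B15 stood at 143, 169 and 152 FPKM after siEZH2 and 28.5, 29.5 and 30.5 FPKM after siCtrl, and at 0.614, 0.755 and 0.886 FPKM after shFOXA1 and 25.8, 25.1 and 26.4 FPKM after pLKO (difference of effects 6.28 ± 0.099, adjusted p = 1.7e-13). It rose after siEZH2 and was under 1 FPKM in every shFOXA1 library. UGT2B17 (difference 5.03 ± 0.092, adjusted p = 4.2e-13) and UGT2B11 (3.44 ± 0.11, adjusted p = 9.2e-11), close paralogs that may share reads, went the same ways. The family member UGT2B28 did not, and fell after both siEZH2 (-1.42) and shFOXA1 (-2.65, difference 1.23 ± 0.11, adjusted p = 7.4e-07). DDC, the decarboxylase gene of dopamine synthesis, fell after shFOXA1 (-3.80) and was not called after siEZH2 (0.17), and the receptor gene TNFRSF19 rose after siEZH2 (1.03) and fell after shFOXA1 (-2.61). In the opposite direction, the small heat-shock protein gene CRYAB stood at 0.888, 0.233 and 0.869 FPKM after siEZH2 and 1.46, 2.04 and 1.16 FPKM after siCtrl, and at 117, 130.5 and 145 FPKM after shFOXA1 and 2.15, 1.95 and 1.71 FPKM after pLKO (difference -6.12 ± 0.22, adjusted p = 2.1e-10). CDKN1A fell after siEZH2 and reached 563, 579.5 and 569 FPKM in shFOXA1 libraries, against 94.2, 90.2 and 95.8 FPKM in pLKO libraries (2.60, difference -3.79 ± 0.069, adjusted p = 4.2e-13). CHAC1 (-2.07 after siEZH2, 1.91 after shFOXA1), HSPB8 (-0.92 and 2.66) and the secreted chaperone gene CLU (-0.81 and 2.57) likewise fell in the one and rose in the other. The phospholipase gene PLA2G2A rose in both, by 0.71 after siEZH2 and 4.16 after shFOXA1.

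**Figure D5:**
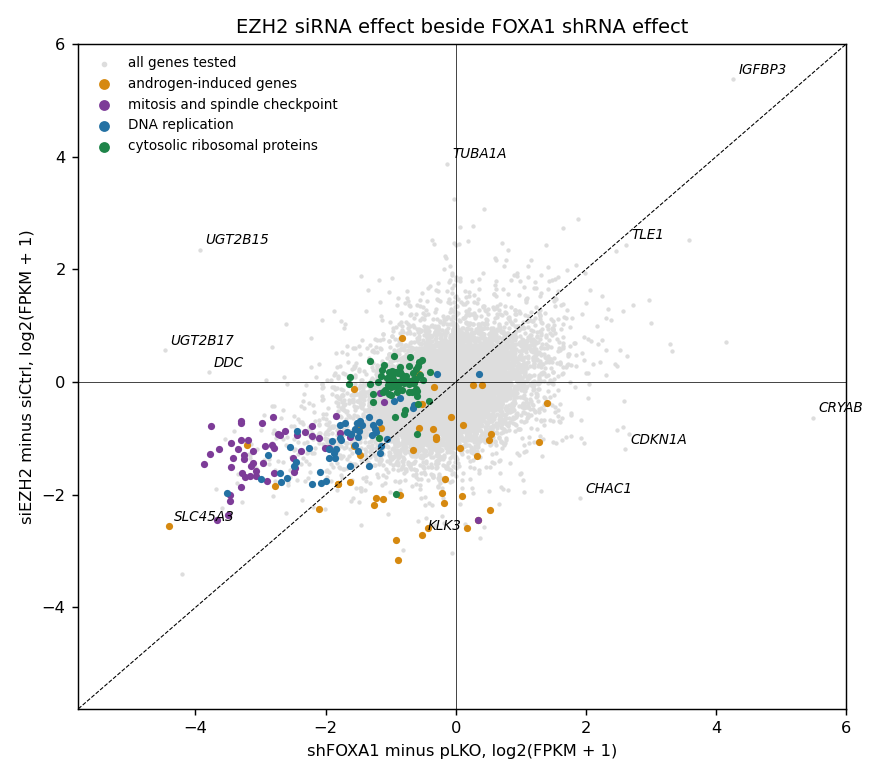
Effect of siEZH2 (vertical) beside the effect of shFOXA1 (horizontal), both as log2(FPKM + 1) differences from their own control, for all genes tested in grey and 4 lists in colour. Mitosis genes lie above the dashed line of equal effects except CENPN, ribosomal genes lie left of 0 and near 0 on the vertical axis, and most androgen-induced genes lie under the line.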

How the data were processed

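RNA of LNCaP cells was sequenced, and the authors deposited FPKM values per gene symbol, made from reads aligned to hg38 by STAR, per the submitters' processing notes. Not given in the sources used here are the STAR version, counter, annotation and strand setting. The table has 18 libraries, of which the 3 siEZH2, 3 siCtrl, 3 shFOXA1 and 3 pLKO were used, and 32 rows without values were left out. A second table with RPKM values holds no siRNA library and was not used. The FPKM table holds no read totals, so precision comes from the spread between libraries.

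Values were taken as log2(FPKM + 1). Genes with FPKM of at least 1 in at least 3 of the 6 siRNA libraries were tested by limma 3.58.1 under R 4.3.3, with group terms, moderated two-sided tests that follow an intensity trend, and Benjamini-Hochberg adjustment over all 11908 genes. The fit was tested on simulated data. An exact permutation test of 3 against 3 cannot go under 0.1. Effects of siEZH2 and shFOXA1 were compared by an interaction contrast over 12 libraries.

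The genes named were EZH2, EZH1, EED, SUZ12, FOXA1 and KLK3, the 12 highest and 12 lowest called genes without overlap and with a mean of at least 1 FPKM in either group, the called members of each list with the largest changes (at most 5), and the 6 highest and 6 lowest differences of effects, besides the luminal markers and genes marked in the text. The text gives part of those the lists take, and a few named genes are not reported here. The members and the 31 lists were chosen with earlier results of these data known. Positions are from GENCODE 29 (GRCh38), sequences from RefSeq (GRCh38.p14). Tables and plots were made with Python 3.11.15, pandas 2.3.3, NumPy 2.4.6 and matplotlib 3.10.9. Alternatives were median-ratio scaling, a pseudocount of 0.1, no filter, a filter at 5 FPKM, a replicate block, all 18 libraries in the fit, and leaving out each siRNA library in turn.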

Additional observations from a re-analysis of the deposited data

How the results depend on the processing

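EZH2, FOXA1 and KLK3 kept their direction and call in all 12 alternatives. So did 163 of 168 other named genes where they were tested, and none reversed, but 23 of the 168 were under the 5 FPKM filter and not tested there. The exceptions included EZH1 and DDC, called under scaling, FOLH1, not called under scaling, and CRYAB, not called with no filter (adjusted p = 0.057). Requiring 5 FPKM left fewer genes, of which 1589 were higher and 200 at least 2-fold higher. A pseudocount of 0.1 gave 544 genes at least 2-fold higher and 1197 lower, since it shrinks low genes less. Without 1 library at a time, 6748 to 7576 genes were called, 2098 to 2312 higher and 4587 to 5267 lower, with 311 to 347 and 785 to 940 at least 2-fold. The same fits gave 7248 to 7643 genes whose siEZH2 and shFOXA1 effects differed, and differences of -1.23 to -1.13 for EZH2, -0.59 to -0.50 for FOXA1 and -2.84 to -2.62 for KLK3. Deviations of same-numbered siEZH2 and siCtrl libraries from their group means correlated at -0.13, 0.06 and 0.05, within the range of -0.25 to 0.21 of different-numbered ones. With 3 libraries per group, these values cannot decide whether the samples were paired, which is not labelled. With the replicate block 7393 genes were called, 2372 higher and 5021 lower, and 7350 differed between the effects. Medians of the FOXO-linked, IGF axis, MHC, PRC2, BCL2 family, ribosomal, neuroendocrine, p53 and other-cell marker lists changed sign or reached 0 in at least 1 alternative.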
